A study of Homo sapiens with 3 samples.

Results

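From the epidermal growth factor receptor family, 3 receptors (EGFR, ERBB2 and ERBB3) and 6 ligands (AREG, EREG, HBEGF, TGFA, BTC and EPGN) were chosen by name, 9 of the 20163 protein-coding genes in GENCODE release 44 on hg19. The receptor ERBB4, the ligand EGF and the neuregulins were not among them and are counted with the other signalling genes at the end. ETS1 ChIP-Seq peaks were counted for a gene when the midpoint of the peak lay in the gene body or within 100 kb of either end, which gave 54 of the 26970 peaks in the consensus list, 37 at the receptors and 17 at the ligands. The peaks were measured in untreated SCC25, an established line of tongue squamous carcinoma cells, which the labels describe as mesenchymal. There were 3 ChIP samples, 2 with the antibody C20 and 1 with the antibody 501A, both raised against the transcription factor ETS1. The authors pooled them into 1 list of positions by IDR, which retains the peaks that rank alike in different replicates. Because that list holds no summit, height, read count or value per sample, the spread between samples could not be computed and the antibodies cannot be told apart. For depth, the study's methods give only a range of reads per sample. Values are therefore counts, positions and widths, given without a test. The intervals quoted are exact 95% binomial intervals and cover the counting of peaks only. A gene without a peak is one where no region reached the list, which sets no limit on weaker binding.

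EGFR, ERBB2 and ERBB3 are receptor tyrosine kinases that pair on the cell surface once a ligand is bound, and pass the signal on to the RAS-MAPK and PI3K pathways. The ligands are made as membrane-anchored precursors and are released by metalloproteases, after which they act on the same cell or on its neighbours. EGFR is abundant in squamous epithelium and is a drug target in head and neck squamous carcinoma. ETS1 belongs to a family of factors that bind DNA at a GGAA core.

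All coordinates are 1-based on hg19, and a peak is called a TSS peak when its midpoint lay within 500 bp of an annotated transcription start site (TSS), the promoter limit of the study. For 6 of the 9 members at least 1 TSS peak was found, where 53.1% of all protein-coding genes had one. These were EGFR, ERBB2, ERBB3, EREG, HBEGF and TGFA. No TSS peak was present at AREG, BTC or EPGN. When only the TSS of the canonical transcript was used, EGFR dropped out and 5 members remained, beside 46.1% of all protein-coding genes. A peak inside the gene body was also found for 6 of 9 members, the same genes, against 53.4% of all protein-coding genes, and 8 of 9 had a peak in the body or within 100 kb, against 87.5%. On each of these counts the 9 genes were close to the background.

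To show the sequence at or near these promoters, 300 bases from the peak nearest to the TSS are printed for 5 of the 6 genes. They are given on the plus strand of GRCh37 (hg19), from 5′ to 3′. The EGFR stretch is centred 770 bp downstream of the canonical TSS, in intron 1, and lies outside the 500 bp promoter limit. The ERBB2 stretch also lies downstream of its canonical TSS. Stretches were shifted where needed to leave out annotated untranslated regions. Capitals mark, on either strand, 1 of the 3 extended ETS cores searched, which are CGGAAG for the first, AGGAAG for the second and AGGAAA for the last, or the AP-1 site TGAGTCA.
EGFR, chr7:55087330-55087629: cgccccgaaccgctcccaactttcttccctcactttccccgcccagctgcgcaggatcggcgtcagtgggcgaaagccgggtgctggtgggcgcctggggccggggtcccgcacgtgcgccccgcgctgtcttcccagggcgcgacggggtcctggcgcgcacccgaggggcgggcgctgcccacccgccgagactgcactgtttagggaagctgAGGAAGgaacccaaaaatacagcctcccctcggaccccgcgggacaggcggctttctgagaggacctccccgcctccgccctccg
ERBB2, chr17:37856492-37856791: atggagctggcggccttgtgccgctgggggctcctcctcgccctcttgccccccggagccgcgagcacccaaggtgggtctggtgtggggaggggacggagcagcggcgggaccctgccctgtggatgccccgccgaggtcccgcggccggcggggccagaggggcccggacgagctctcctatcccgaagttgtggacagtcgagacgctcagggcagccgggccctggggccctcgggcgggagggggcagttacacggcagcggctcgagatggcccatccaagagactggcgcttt
EREG, chr4:75230562-75230861: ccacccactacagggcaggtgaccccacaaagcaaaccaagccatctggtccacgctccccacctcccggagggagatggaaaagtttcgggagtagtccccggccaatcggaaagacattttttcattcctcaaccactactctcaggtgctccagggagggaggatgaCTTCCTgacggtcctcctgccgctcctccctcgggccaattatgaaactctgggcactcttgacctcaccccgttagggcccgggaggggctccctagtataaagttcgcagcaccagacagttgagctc
HBEGF, chr5:139726189-139726488: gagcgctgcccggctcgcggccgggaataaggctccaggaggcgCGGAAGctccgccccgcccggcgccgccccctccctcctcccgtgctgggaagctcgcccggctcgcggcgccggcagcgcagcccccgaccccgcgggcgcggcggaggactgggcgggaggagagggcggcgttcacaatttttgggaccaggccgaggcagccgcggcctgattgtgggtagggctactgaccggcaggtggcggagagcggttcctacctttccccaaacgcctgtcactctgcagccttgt
TGFA, chr2:70781106-70781405: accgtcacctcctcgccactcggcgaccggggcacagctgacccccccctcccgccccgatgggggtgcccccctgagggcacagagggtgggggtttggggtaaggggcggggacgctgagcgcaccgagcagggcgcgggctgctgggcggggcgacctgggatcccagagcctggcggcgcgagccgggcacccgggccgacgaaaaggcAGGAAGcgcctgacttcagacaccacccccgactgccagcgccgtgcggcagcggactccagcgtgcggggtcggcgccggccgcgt
An ETS core in capitals is seen in 4 of the 5 stretches, at EGFR, EREG, HBEGF and TGFA. At TGFA it lies outside the 300 bp around the midpoint that were searched in every peak. Of all nuclear TSS peaks, 61.8% held at least 1 of these cores in those 300 bp. Most stretches were shifted from the midpoint, so their count cannot be set against that share. None of the letters searched occurs in the ERBB2 stretch.

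**Figure D1:**
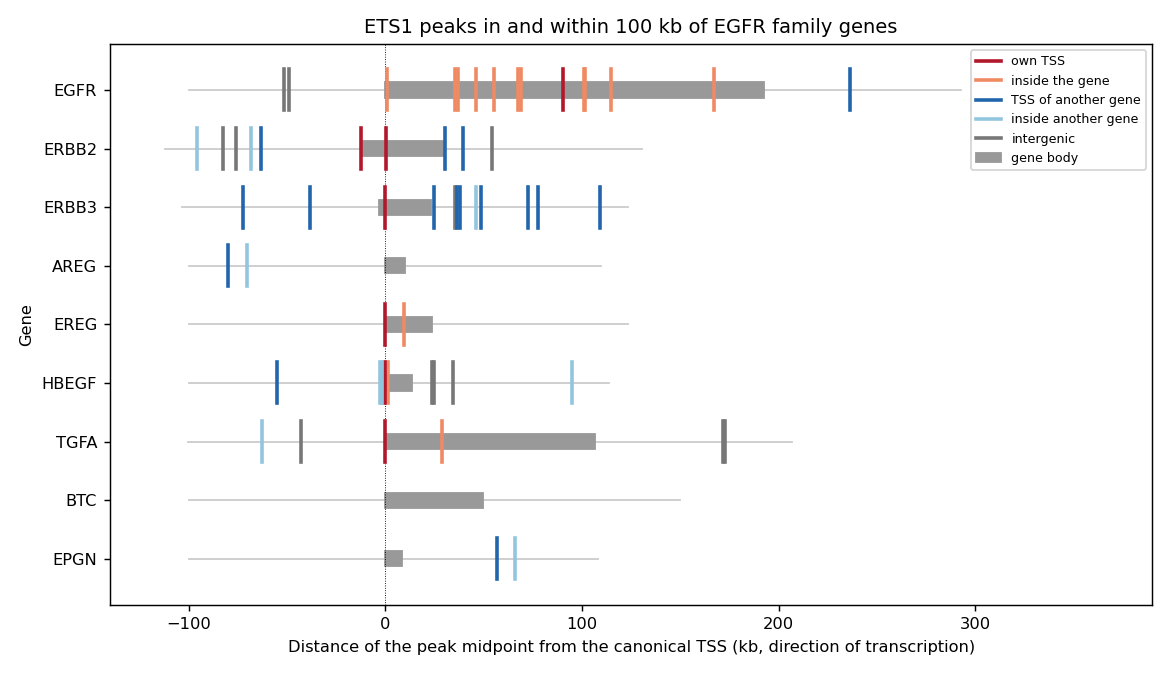
Each vertical bar is 1 ETS1 peak, placed by the distance of its midpoint from the canonical TSS in kb along the direction of transcription, with the gene body as a grey box and the 100 kb flanks as a thin line. Peaks crowd into the EGFR body (12 of 15), lie mostly outside the body at ERBB2 and ERBB3, and are absent over BTC.

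EGFR (chr7:55086710-55279321, plus strand) carried 15 peaks, the most of the 9 genes, of which 12 lay inside the gene. That order depended on the rule: with 250 kb on each side ERBB3 had 31 and EGFR 19, and in the first 13485 lines of the list EGFR had 4 and ERBB3 had 9. Of all protein-coding genes, 5.52% had at least as many peaks in body and flanks, and 0.228% had at least as many in the body. EGFR is also long, at 193 kb, and per 100 kb of window it had 3.82 peaks, a density reached by 20.5% of protein-coding genes. No other protein-coding gene has a TSS in its window.

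The widest EGFR peak covered 3138 bp (chr7:55085912-55089049) and spanned 7 of the 12 annotated EGFR TSSs, including the canonical one. Its midpoint, in intron 1, was 770 bp downstream of the canonical TSS and 636 bp from the nearest TSS of any EGFR transcript, so that it was not counted as a TSS peak although it overlapped the promoter. The peak that did count was a narrow one of 295 bp (chr7:55177046-55177340), 90483 bp into the gene and 223 bp from the TSS of an alternative transcript.

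Intron 1 held 11 of the 12 peaks inside EGFR. This intron is 123 kb long, 63.8% of the gene, and had 8.95 peaks per 100 kb, while the 69.3 kb of the gene after it contained a single peak. Apart from the promoter peak, the midpoints in intron 1 were 35250, 36760, 46308, 55139, 67687, 68801, 90483, 101210, 101647 and 114557 bp downstream of the canonical TSS. Many of them were narrow, with a median width of 432 bp (range 280 to 3138) and 8 of 11 under 600 bp. Over all peaks, TSS peaks included, the median was 969 bp (quartiles 609 and 1462). The 2 wide peaks of intron 1 besides the promoter peak measured 1869 bp (chr7:55121026-55122894) and 1747 bp (chr7:55200394-55202140). The only peak past intron 1 (chr7:55253531-55254250, 720 bp) lay in intron 20, where the antisense lncRNA EGFR-AS1 is also annotated.

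Outside the EGFR body, 2 narrow intergenic peaks of 285 and 366 bp were 51443 and 49192 bp upstream of the TSS. The last peak (chr7:55321817-55324095, 2279 bp) was beyond the 3′ end, 372 bp from the TSS of the lncRNA ELDR. With the exception of that peak, all of the peaks at EGFR, 14 of 15, overlapped a region that the authors had called a super-enhancer from H3K27Ac data. Of all nuclear peaks in the list, 17.2% overlapped such a region.

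ERBB2 (chr17:37844167-37886679, plus strand), the receptor without a known ligand of its own, had 10 peaks in its window, and 18.4% of protein-coding genes had at least as many. Both of its TSS peaks lay at separate promoters. The peak at the canonical TSS (chr17:37855987-37857259, 1273 bp) had its midpoint 306 bp downstream in intron 1 and covered 6 of 21 annotated TSSs. The other (chr17:37843677-37844578, 902 bp) was 12190 bp upstream of the canonical TSS, 40 bp from the TSS of longer transcripts, and its midpoint was also 127 bp from the TSS of PGAP3, which encodes an enzyme of lipid-anchor remodelling. Since that promoter is shared by ERBB2 and PGAP3, the peak cannot be assigned to either.

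The remaining 8 peaks at ERBB2 belonged by position to its neighbours or to intergenic sequence. Of these, 3 were TSS peaks of other genes. The peak at the TSS of GRB7, an adaptor that binds ERBB2, was the widest of all 54 at 4282 bp (chr17:37893764-37898045, midpoint 316 bp from that TSS). The peak of MIEN1 (1091 bp, 101 bp from its TSS) overlapped the 3′ end of ERBB2, and the peak of STARD3, a cholesterol transporter, was 1270 bp wide and 73 bp from the TSS. Of the other 5, narrow peaks of 477 and 629 bp were in PPP1R1B and NEUROD2, and 3 were intergenic, of which the nearest to the ERBB2 TSS was 54350 bp downstream (1533 bp wide). Among the 9 other protein-coding genes with a TSS in the window, 4 had a TSS peak.

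ERBB3 (chr12:56470583-56497289, plus strand), a receptor with little kinase activity that signals through its partners, had 12 peaks in its window but only 1 in the gene. That peak (chr12:56472779-56474861, 2083 bp) had its midpoint 129 bp upstream of the canonical TSS and covered 12 of 32 annotated TSSs. No peak was listed in any ERBB3 intron downstream of it.

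At ERBB3, 9 of 12 peaks were TSS peaks of other genes, and 9 of the 12 other protein-coding genes with a TSS in the window had one. PA2G4, which encodes the ERBB3-binding protein EBP1, had a peak of 1577 bp whose midpoint was 4852 bp from the nearest ERBB3 TSS. The ribosomal protein genes RPS26 and RPL41, the transcription factor gene IKZF4, the chromatin remodeller subunit gene SMARCC2 and the myosin light chain gene MYL6B had peaks 22, 206, 81, 5 and 36 bp from a TSS. Among protein-coding genes, the others were nearest to ZC3H10 (5 bp), to MYL6 (324 bp) and to ESYT1 (546 bp). The MYL6 peak was 198 bp from the TSS of the lncRNA MYL6B-AS1, and the ESYT1 peak was 41 bp from that of another lncRNA. That last peak is beyond the 500 bp limit for ESYT1, which is among the 9 genes through another peak. A peak of 525 bp inside ESYT1 and an intergenic one of 348 bp made up the rest. ERBB3 had the highest density of the 9 genes, 5.29 peaks per 100 kb, which 10.1% of protein-coding genes reached.

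**Figure D2:**
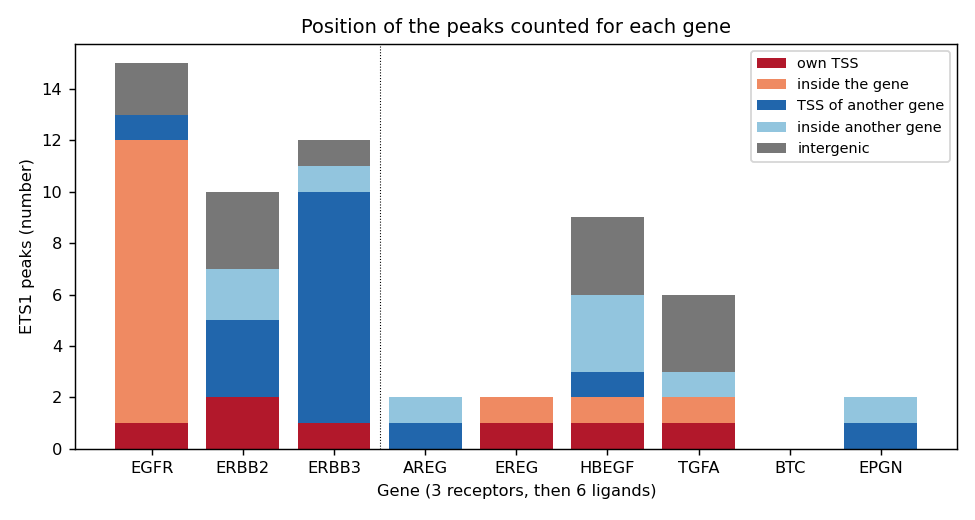
Stacked bars give the number of ETS1 peaks counted for each gene, split by whether the midpoint was at a TSS of the gene, elsewhere in the gene, at a TSS of another gene, elsewhere in another gene or intergenic. Peaks inside the gene make up most of the EGFR bar (11 of 15), and TSS peaks of other genes most of the ERBB3 bar (9 of 12). The 2 peaks of EREG are drawn again for AREG and EPGN.

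HBEGF (chr5:139712428-139726188, minus strand), a heparin-binding ligand of EGFR, had 9 peaks, the most of the 6 ligands, and 22.9% of protein-coding genes had at least as many. In the first 13485 lines of the list it had 5 and TGFA 6, and both had 5 when peaks within 1 kb were joined. Around the promoter were 4 peaks within 2888 bp of the TSS. The TSS peak (chr5:139725562-139726683, 1122 bp) had its midpoint in exon 1, 66 bp downstream. The peak in intron 2 (chr5:139724186-139725095, 910 bp) was 1548 bp downstream, and narrower peaks of 605 and 456 bp were 1718 and 2888 bp upstream, in the body of an unnamed lncRNA.

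Downstream of HBEGF, 3 intergenic peaks of 1395, 450 and 553 bp were 23528, 24642 and 34488 bp from the TSS. The farthest peaks lay in the overlapping genes PFDN1 and CYSTM1 (475 bp wide, 94967 bp downstream) and at the TSS of ANKHD1, a scaffold protein gene (2075 bp wide, 55017 bp upstream). None of the 9 peaks overlapped a super-enhancer.

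TGFA (chr2:70674416-70781325, minus strand), which encodes the EGFR ligand TGF-alpha, had 6 peaks in its window and 2 in the gene, and 39.2% of protein-coding genes had at least as many in body and flanks. Its TSS peak was the widest ligand peak (chr2:70779600-70782242, 2643 bp), with the midpoint 37 bp downstream of the canonical TSS and 6 of the 7 annotated TSSs covered. Intron 1 held a second wide peak (chr2:70751218-70753028, 1811 bp), 28835 bp downstream.

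Far from TGFA, peaks of 937 and 842 bp were 42921 bp upstream, between genes, and 62610 bp upstream, in ADD2. A pair of narrow intergenic peaks (364 and 502 bp) lay 172468 and 171782 bp downstream of the TSS, past the 3′ end. The promoter, intron 1 and this pair gave 4 peaks in super-enhancers, and they were the only ligand peaks of the 17 in one.

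The genes EPGN, EREG, AREG and BTC lie together on chromosome 4, and the 746 kb from EPGN to BTC with their flanks contained 3 peaks in all. EREG, which encodes epiregulin (chr4:75230862-75254466, plus strand), had 2 of them. Its TSS peak (chr4:75230329-75231257, 929 bp) had its midpoint 69 bp upstream and covered 2 of 3 annotated TSSs. The other (chr4:75240027-75240634, 608 bp) was in intron 1, 9468 bp downstream.

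Those 2 EREG peaks were the only ones within 100 kb of AREG and of EPGN. AREG, which encodes amphiregulin (chr4:75310853-75320722, plus strand), had none in its body, and the nearest was 70523 bp upstream of its TSS. EPGN, which encodes epigen (chr4:75174187-75182506, plus strand), had none in its body either, and the nearest was 56606 bp downstream of its TSS. For BTC, which encodes betacellulin (chr4:75669969-75719733, minus strand), no peak was counted. The third peak in the cluster (chr4:75557836-75558137, 302 bp) was 111983 bp from the BTC gene, just outside the limit.

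Whether reads could be placed at all was checked, because the authors kept only reads of 50 bp that mapped to a single locus. On hg19 AREG has a near-identical copy, AREGB, 250 kb downstream of the EREG TSS where AREG is at 80.0 kb. Of all 50-base words that start in the AREG body, 7.25% occurred once in the genome, and in the 500 bp on either side of its TSS 9.89% did. In the other 8 genes the share was 93.6 to 98.7% in the body and 100% around the TSS. Of the AREG words, 92.7% had an identical match in AREGB, and 1.57% had no match there with up to 2 differences. The absence of a peak at AREG is therefore a value from sequence in which few reads are kept, and the part this has in the result was not tested. EPGN and BTC were as unique as the genes with peaks, at 97.4 and 98.2% of the body.

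**Figure D3:**
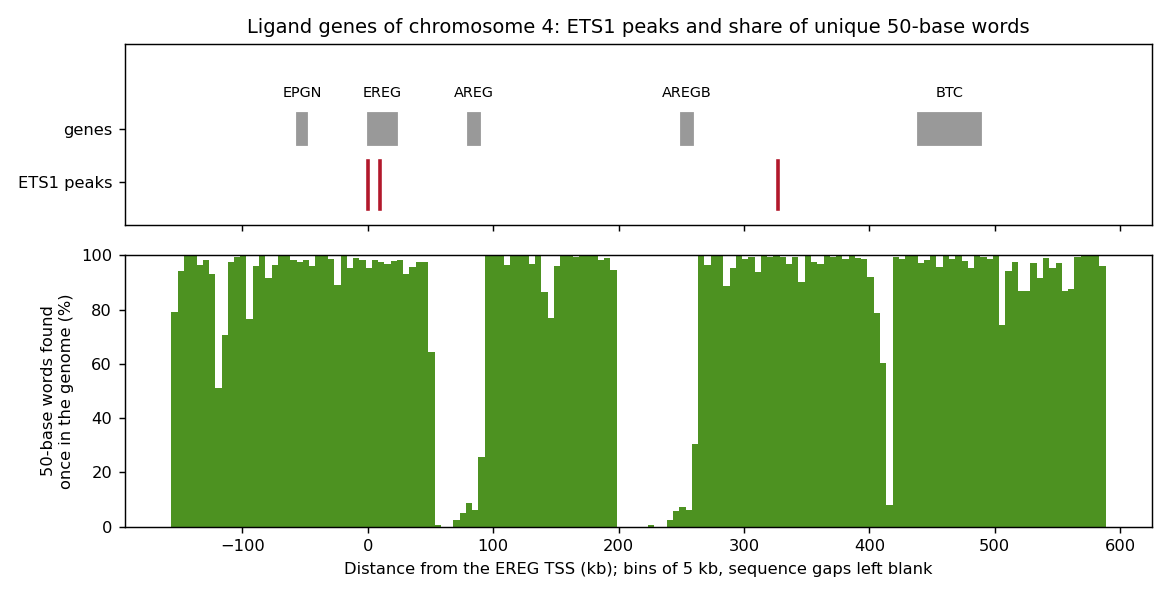
The upper panel shows the genes of the chromosome 4 cluster and the ETS1 peaks by distance from the EREG TSS in kb. The lower panel gives the percentage of 50-base words found once in the genome, in bins of 5 kb, which falls close to 0 over AREG and AREGB and is high over EPGN, EREG and BTC.

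Receptors and ligands were then set side by side. The 37 receptor peaks fell in 862 kb, or 4.29 per 100 kb, and the 17 ligand peaks in 1117 kb, or 1.52 per 100 kb. Over all protein-coding genes the median was 1.60 per 100 kb (quartiles 0.555 and 3.36). Ligands differed widely among themselves, from 4.21 per 100 kb at HBEGF, within the range of the receptors, and 1.95 at TGFA to 0.953 at AREG and 0 at BTC. Both densities depended on which genes were counted. With the window of ERBB4, which held no peak, the 4 receptors had 37 peaks in 2225 kb, or 1.66 per 100 kb. With EGF and the neuregulins the 11 ligands had 30 in 4867 kb, or 0.616 per 100 kb. The receptors stayed above the ligands with both groups extended, but only slightly (1.66 and 1.52) with the receptors alone extended. These genes are not replicates of a class, 3 of the ligands share their peaks, and no test was made.

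By position, 4 receptor peaks were at a TSS of the receptor itself (10.8%, interval 3.03 to 25.4), 11 were elsewhere in the receptor gene (29.7%, interval 15.9 to 47.0) and 13 were at the TSS of another gene (35.1%, interval 20.2 to 52.5). A further 3 were inside another gene and 6 were intergenic (16.2%, interval 6.19 to 32.0). All 11 inside a receptor gene were those of EGFR, and 12 of the 13 at another TSS were in the crowded windows of ERBB2 and ERBB3. Of the ligand peaks, 3 were at the TSS of the ligand (17.6%, interval 3.80 to 43.4), 3 elsewhere in its body, 1 at the TSS of another gene (5.88%, interval 0.149 to 28.7), 4 inside another gene and 6 intergenic (35.3%, interval 14.2 to 61.7). Counted by midpoint in the gene, whatever the class, 15 of 37 receptor peaks (40.5%) and 5 of 17 ligand peaks (29.4%) were inside. This count takes in the MIEN1 peak at the 3′ end of ERBB2. It leaves out the TSS peak shared by ERBB2 and PGAP3 and that of EREG, whose midpoints lie just upstream of the gene. Peaks of a gene lie close together and come from few genes, so the intervals are too narrow for a comparison of the groups.

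Peaks at a TSS of any gene made up 17 of 37 at the receptors (45.9%, interval 29.5 to 63.1) and 4 of 17 at the ligands (23.5%, interval 6.81 to 49.9). Across all nuclear peaks the share was 43.3%, with 36.0% inside genes and 20.6% intergenic. The receptor peaks had a median width of 1091 bp (range 280 to 4282) and the ligand peaks one of 842 bp (range 364 to 2643).

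**Figure D4:**
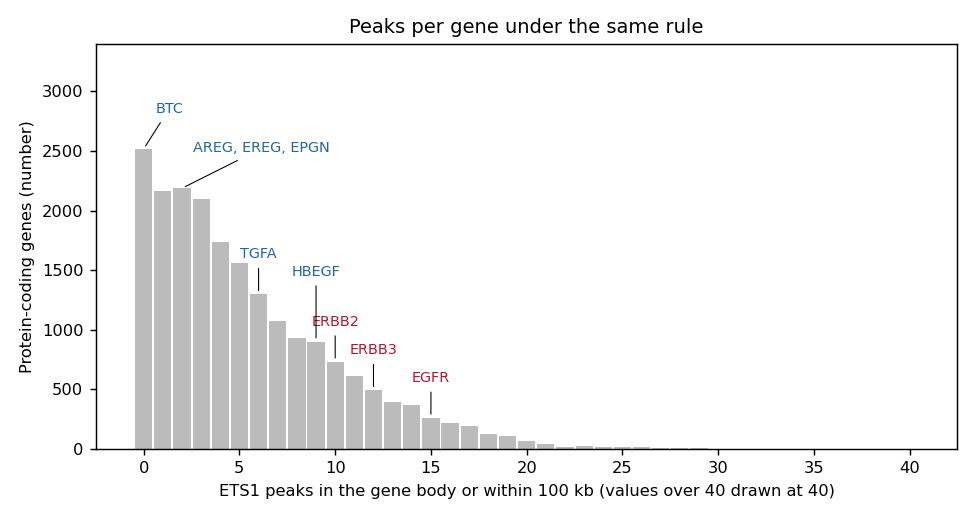
The histogram shows the number of ETS1 peaks in the body or within 100 kb of each of 20163 protein-coding genes, with the family marked (receptors in red, ligands in blue). The receptors lie at 10, 12 and 15 peaks, to the right of the median of 4, and the ligands spread from 0 to 9.

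The letters of known motifs were searched on both strands in the 300 bp around each midpoint. At least 1 of the 3 ETS cores was present in 42 of 54 windows (77.8%), 29 of 37 at the receptors and 13 of 17 at the ligands, where 66.0% of all nuclear peaks had one. AGGAAG occurred in 28 (51.9%, all peaks 41.3%), CGGAAG in 15 (27.8%, all peaks 18.4%) and AGGAAA in 13 (24.1%, all peaks 28.5%). TGAGTCA occurred in 13 (24.1%, all peaks 16.7%) and the RUNX letters TGTGGT in 11 (20.4%, all peaks 17.3%). The 12 peaks inside EGFR held 10 of the 28 AGGAAG windows and 6 of the 13 TGAGTCA windows. Among the ligand peaks the shares were 47.1% for AGGAAG and 17.6% for TGAGTCA, nearer to those of all peaks. The higher shares of AGGAAG and TGAGTCA thus came in large part from EGFR. The motifs searched overlap in part with each other, and a match is a description of the sequence.

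The 12 windows inside EGFR had AGGAAG in 10 (83.3%) and TGAGTCA in 6 (50.0%), and each of those 6 also held an ETS core. Without the peak at the alternative TSS, the shares were 9 of 11 (81.8%) and 5 of 11 (45.5%). Among all nuclear peaks beyond 500 bp of a TSS the shares were 47.0% and 25.4%, and 17.8% held an ETS core and TGAGTCA. The groups were not matched for width. The median was 432 bp in EGFR intron 1 and 969 bp over all peaks, TSS peaks included. The median width of the peaks beyond 500 bp of a TSS was not computed. The 11 still include the 3138 bp peak that spans 7 EGFR TSSs. At EGFR the 6 were among the narrow peaks, the widest of them 539 bp. CGGAAG was found in 10 of the 21 member peaks at any TSS (47.6%, all TSS peaks 28.0%) and in 5 of the 33 elsewhere (15.2%, all such peaks 11.1%). The 21 include 13 receptor peaks and 1 ligand peak at the TSS of another gene. Of the members' own TSS peaks, only those at HBEGF and at the promoter shared by ERBB2 and PGAP3 held it. The higher share thus came mostly from promoters of neighbouring genes. The window at the ERBB2 canonical TSS was the only one of 54 without GGAA on either strand, as were 5.27% of all TSS peaks.

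For examples away from a promoter, 2 stretches were chosen after their values were seen, with capitals as above. They are the centre of a narrow EGFR peak in intron 1 that holds all 3 ETS cores and the AP-1 site, and the centre of the nearest HBEGF peak upstream of the TSS.
EGFR intron 1, chr7:55141699-55141998: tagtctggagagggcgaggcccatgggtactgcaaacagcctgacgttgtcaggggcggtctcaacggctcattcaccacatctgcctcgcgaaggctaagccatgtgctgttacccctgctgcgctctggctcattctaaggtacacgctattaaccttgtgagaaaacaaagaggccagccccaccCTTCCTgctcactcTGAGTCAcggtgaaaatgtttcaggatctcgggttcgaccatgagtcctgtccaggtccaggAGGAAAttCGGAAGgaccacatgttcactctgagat
HBEGF upstream, chr5:139727756-139728055: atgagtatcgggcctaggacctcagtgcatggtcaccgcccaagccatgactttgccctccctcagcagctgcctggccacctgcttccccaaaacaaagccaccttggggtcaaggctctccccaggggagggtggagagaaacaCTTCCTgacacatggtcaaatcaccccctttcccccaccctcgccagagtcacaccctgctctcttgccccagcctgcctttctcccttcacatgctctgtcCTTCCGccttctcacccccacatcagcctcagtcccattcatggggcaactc
An AP-1 site stands beside the ETS cores in the EGFR stretch, and the HBEGF stretch has ETS cores alone.

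**Figure D5:**
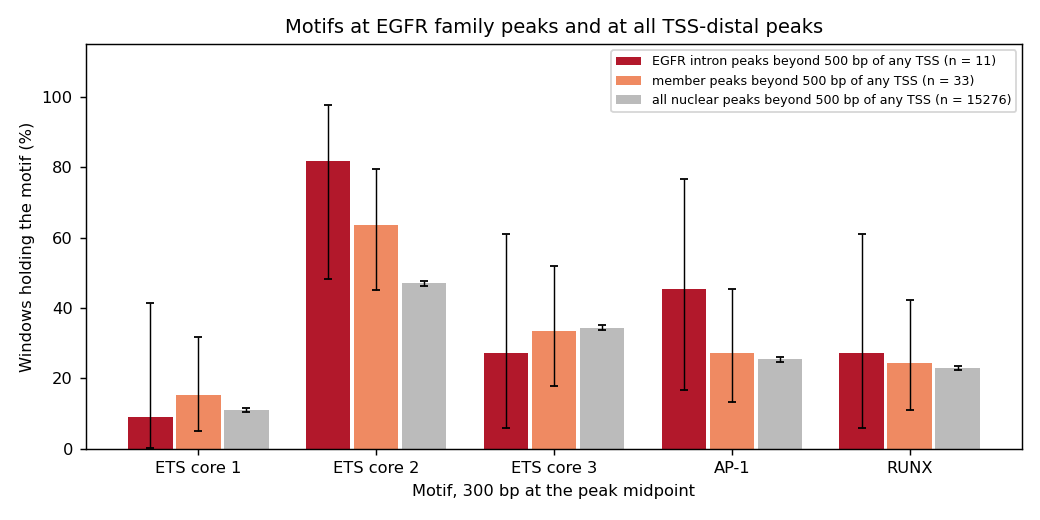
Bars give the percentage of 300 bp windows that hold a motif, with exact 95% binomial intervals, for the 11 peaks inside EGFR, the 33 member peaks and the 15276 nuclear peaks that were each beyond 500 bp of any TSS. ETS core 1 stands for CGGAAG, ETS core 2 for AGGAAG and ETS core 3 for AGGAAA, while the AP-1 site is TGAGTCA and the RUNX site is TGTGGT. Core 2 and AP-1 are highest in the EGFR peaks, with wide intervals.

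The promoters themselves, from 250 bases before to 50 after the TSS, were read from RefSeq (GRCh38.p14) for 8 of the 9 members. CGGAAG was present at ERBB2 and HBEGF (19.9% of 27305 promoters), AGGAAG at AREG, EREG and TGFA (33.7%) and AGGAAA at EPGN (28.1%). EPGN thus had an ETS core in the promoter without a peak there, and EGFR had a peak over its promoter without one of these letters in this window. AREG also had a core and no peak. Around its TSS, however, only 9.89% of the 50-base words occurred once in the genome, against 100% at EPGN. Few reads are kept there, so the absence of a peak at AREG cannot be set beside that at EPGN. TGAGTCA was in none of the 8, and 4.92% of all promoters held it. EPGN had a GC content of 37.7%, against a median of 58.3% for all promoters and 75.3% at EGFR and TGFA.

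Of 43 other genes of EGFR family signalling, taken from textbook knowledge, 35 had a TSS peak (81.4%), where 53.1% of all protein-coding genes had one, and 32 had a peak in the body. This list was chosen with earlier results of these data known, and no matched list of other genes was counted. Whether the higher share is particular to the pathway was not tested. Among the ligands and receptors of this list, the receptor gene ERBB4 and the ligand gene NRG3 had no peak within 100 kb. EGF, the founding ligand, and NRG4 had none at a TSS or in the body, and the same held for the adaptor gene GAB2. The neuregulin genes NRG1 and NRG2 did have a TSS peak, with 2 and 3 peaks in the body. LRIG1, which encodes a membrane protein that lowers ERBB levels, had 3 peaks in the body and none at a TSS, RHBDF2, a regulator of ligand shedding, had 2, and the scaffold gene ERBIN had 1. The most peaks in the body were found at the kinase gene SRC (6), the mucin gene MUC4 (4) and LRRK1 (4), a kinase gene of EGFR trafficking, all 3 with a TSS peak.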

How the data were processed

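ETS1 ChIP-Seq was performed by the authors in SCC25, with 3 samples (2 with C20, 1 with 501A) sequenced as single 50 bp reads. Per the submitters' processing notes the reads were mapped to hg19 with Bowtie 1.1.1 and handled with SAMtools 1.3. Per the study's methods, reads that mapped to more than one locus were removed, peaks were called with MACS2 against merged input, and IDR was applied across samples, pseudo-replicates and the pool. The deposited values are peak positions only (chromosome, start and end), with no signal, score or depth per sample, and 0 columns were left out as belonging to other samples. The 9 mitochondrial peaks were not used, which left 26961.

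Starts were converted to 1-based. Genes and TSSs were taken from GENCODE release 44 on GRCh37, on which 0 nuclear peaks ran past a chromosome end. Each peak was placed by its midpoint in the order own TSS (500 bp), TSS of another gene, own gene, other gene, intergenic. Super-enhancer regions were used as called by the authors. The annotated class of each peak, motif letters, and 50-base words found once in GRCh37 were computed with numba 0.67.0, pysam 0.24.0, scipy 1.17.1, pandas 2.3.3 and numpy 2.4.6 under Python 3.11.15, and the code was tested on simulated data. Promoters came from RefSeq on GRCh38.p14, used without coordinates. The sequences printed come from the peak nearest to the TSS of a member and from 2 further peaks, and some sequences are not reported here.

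Genes named are the 9 members, the protein-coding genes nearest to their peaks, and, of the pathway list, those without a TSS peak or with the most peaks in the body. The members and the lists were chosen with earlier results of these data known. No test was made, since the list is pooled. Alternatives were the flank (50 and 250 kb), 1 bp of overlap in place of the midpoint, the TSS limit (1500 bp), the canonical TSS only, peaks within 1 kb joined, peaks whose nearest protein-coding TSS was that of a member, and the first 13485 lines of the list. Chosen after seeing the data were densities with ERBB4, EGF and the neuregulins added, and EGFR motif shares without its TSS peak.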

Additional observations from a re-analysis of the deposited data

How the results depend on the processing

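The counts depend on how far from a gene a peak is still counted. With 250 kb on each side the receptors had 64 peaks and the ligands 36, and the share of receptor peaks inside the receptor genes was 23.4%, against 40.5% with 100 kb. When a peak was kept only where the nearest protein-coding TSS was that of a member, 18 and 11 were left. The first 13485 lines of the list, in the order deposited, gave 18 receptor peaks (22.2% inside the genes) and 13 ligand peaks, with EGFR falling from 15 to 4 peaks, and 3 members with a TSS peak (ERBB2, EREG and TGFA), beside 34.8% of all protein-coding genes, and that order is not explained in the sources used here. With 50 kb, with an overlap of 1 bp and with peaks within 1 kb joined, the counts stayed within 1.5 times of those given (28, 37 and 32 at the receptors, 12, 17 and 12 at the ligands). For single genes, over all 6 of these alternatives, 36 of 54 counts were within 1.5 times and 18 were not. As an alternative added after seeing the data, ERBB4 brought the receptors from 4.29 to 1.66 peaks per 100 kb, and EGF and the neuregulins brought the ligands from 1.52 to 0.616. Peaks just past the limit lay 102905 bp from ERBB3 and 103025 bp from TGFA. No paired analysis was possible because the samples were pooled into 1 list, and for the same reason no replicate could be left out. Peak height, binding strength and the exact depth of each sample were not available, so that a narrow peak and a wide one count alike.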
